A study of Arabidopsis thaliana with 6 samples.

Results

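RGA-GFP peaks that are short and yet fall in the windows of 3 neighbouring genes were gathered from the list that the authors called on combined libraries. A member is a peak of that pooled list under 1000 bp long that shares at least 50 bp with the windows of at least 3 genes in the authors' deposited table of genes. The members were therefore chosen by measured values, the position and length of pooled peaks called against wild type and the genes with an RGA-GFP peak. The rule found 113 members among 8112 pooled peaks, which is 1.51% of the 7475 pooled peaks under 1000 bp. Each of the 113 lay in exactly 3 windows, so a member has a left, a middle and a right gene. Of the other short pooled peaks, 6866 lay in 1 or 2 windows and 496 in none.

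The RGA-GFP group was 3 libraries from inflorescence apices of Arabidopsis thaliana in the Landsberg-erecta background, in which the RGA promoter drove a GFP-tagged, gibberellin-insensitive form of RGA (RGAp:GFP-rga-delta17). The wild type group was 3 libraries of Landsberg-erecta apices with no GFP, precipitated with the same anti-GFP beads. Per the labels, the replicates were biological and plants had about 10 mature flowers at harvest. The labels used here do not say how many transgenic lines were used or whether the endogenous RGA gene was intact.

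RGA belongs to the DELLA family of growth repressors, which the cell degrades when gibberellin is present. These proteins do not bind DNA by themselves but reach chromatin through transcription factors, so a peak marks chromatin that was crosslinked to a complex holding the tagged protein. Transfer RNA (tRNA) genes, which recur below, are very short genes that RNA polymerase III transcribes from promoter elements inside the gene.

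After removal of duplicates, 14644122, 15704296 and 16745139 tags were kept in RGA-GFP, against 10014730, 8808462 and 3999159 in wild type. The pooled fold enrichment is the authors' ratio of the combined RGA-GFP pileup at the summit to the background from the combined wild type. The list fold is the authors' ratio within 1 library called with no control, so it sets a peak against the surroundings in the same library. Where several peaks of a list overlap a member, the highest list fold is given. In 7 members, 10 of these list values belong to a peak whose summit lies outside the member, and those printed below are marked. The pooled and single lists share their reads. Coordinates are those of the TAIR10 build.

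The windows of the authors' table reach up to 3000 bp upstream and 1500 bp downstream of a coding sequence. Around the members they left little room: the left and right windows ended on either side of a short interval. The interval could be measured in 112 members and had a median of 72 bp, with a range of 34 to 475 bp. The window of the middle gene ran across the whole interval in 106 of the 112. The interval itself lay wholly inside the peak in all 112, which the rule fixes. The middle window had a median length of 865 bp, against 3376.5 bp for the outer windows and 4182.5 bp for all 13426 windows of the table, and it was the shortest of the 3 in 104 members. No summit lay in 3 windows, which is also fixed where an interval separates the outer windows. The summit lay in 2 windows in 67 members, in 1 window in 44 and in none in 2, so a flank of the peak reached at least 1 of the 3 windows.

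**Figure D1:**
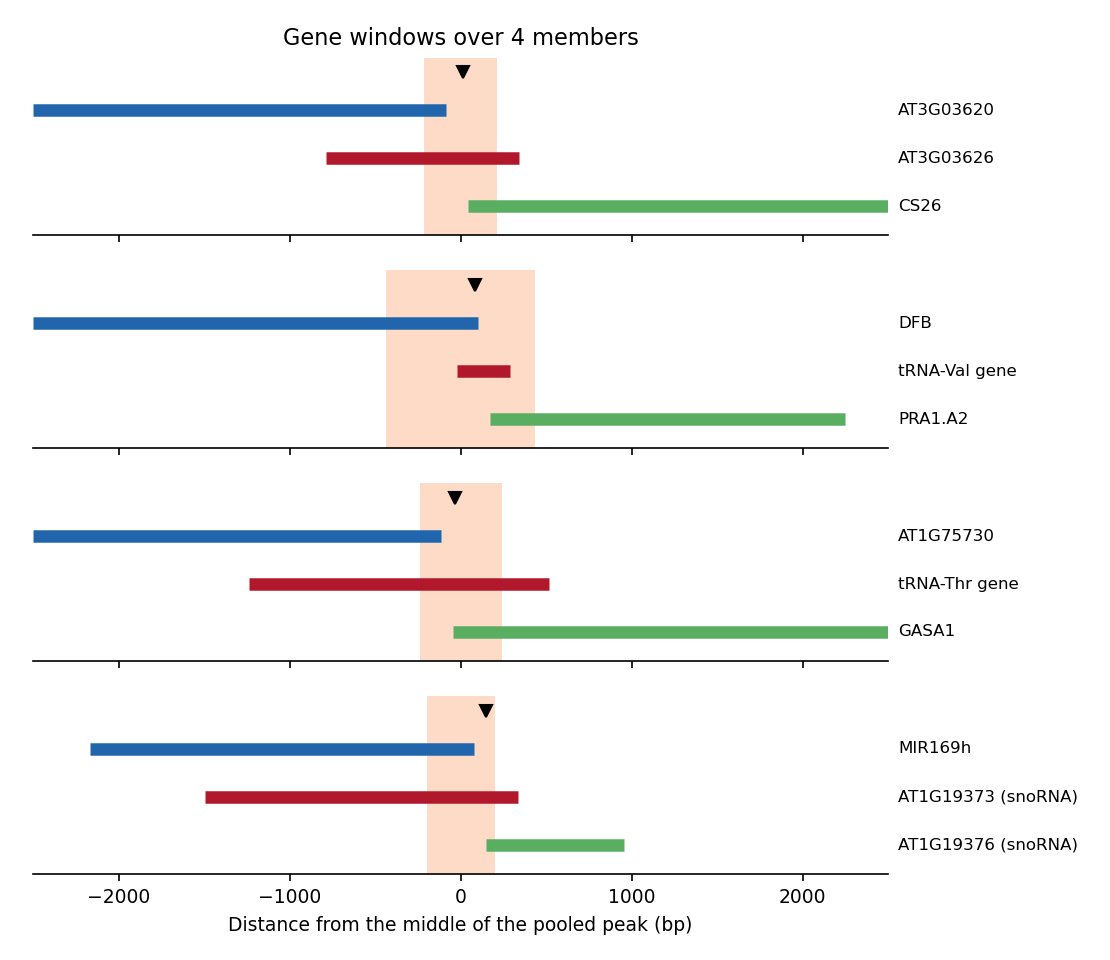
Gene windows of the authors' table (bars, left gene in blue, middle gene in red, right gene in green, cut off 2500 bp from the middle of the peak) over 4 members, with distance from the middle of the pooled peak in bp on the x axis. Shading marks the pooled peak and the triangle its summit. In each map the 2 outer windows end inside the peak and the middle window bridges the gap between them.

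Most members surrounded a tRNA gene. A tRNA window was among the 3 windows of 77 of the 113 members (68.1%), against 2.41% of all short pooled peaks. The share was 2.58% (89 of 3448) among short peaks in 2 windows and 0.410% (14 of 3418) among those in 1 window. In the 38 peaks of 1000 bp or more that lay in at least 3 windows, a tRNA window was present in 4 of the 35 in 3 windows (11.4%) and in none of the 3 in 4 windows. The tRNA gene was the middle gene in 74 members, the left gene in 1 and the right gene in 2. With a tRNA gene in the middle, the interval between the outer windows had a median of 71 bp (range 34 to 82), and its 2 edges were exactly the edges of the annotated tRNA gene in 66 of 74 members. At least 1 edge was exact in all 74. The rule favours such places by construction, since a peak under 1000 bp can cover 50 bp of 3 windows where the middle gene is short and its neighbours are close.

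**Figure D2:**
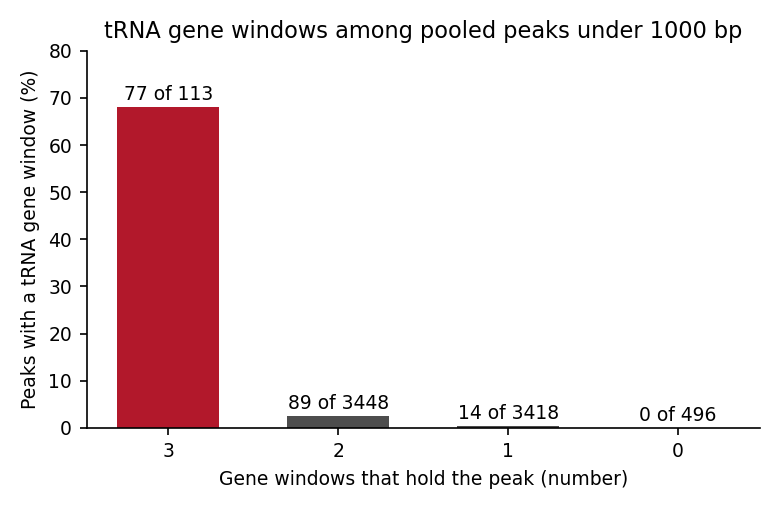
Share of pooled peaks under 1000 bp that lie in a tRNA gene window (y axis, %) by the number of gene windows that hold the peak (x axis), with the counts above the bars. The share is 68.1% for the members and under 3% for peaks in fewer windows.

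The tRNA genes of the members carried 19 of the 20 amino acids in the table. Arginine was the most frequent with 10 members, followed by serine with 8, valine with 7, and glycine and methionine with 6 each. The authors' table lists 24 windows of tRNA-Arg, 29 of tRNA-Ser and 17 of tRNA-Val. No member held a tRNA-Gln window, of which the table has 14, and 5 of those have a pooled fold. The 77 windows were 23.1% of the 333 tRNA windows of the table and 44.8% of the 172 that have a pooled fold.

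The strongest tRNA member covered chr5:1804079-1804951, where a tRNA-Val gene (AT5G05985, anticodon CAC) lies between DFB, an enzyme that adds glutamates to folate, and PRA1.A2, a prenylated RAB acceptor. Its list folds were 3.77, 3.37 and 3.31 in RGA-GFP libraries 1, 2 and 3, its pooled fold was 2.12, and no wild type list held a peak there. It was the sole tRNA member with a pooled fold of at least 2. A tRNA-Glu gene (AT2G38030, anticodon CTC) beside CAC3, the carboxyltransferase subunit of the plastid acetyl-CoA carboxylase that starts fatty acid synthesis, lay under chr2:15916401-15917379. List folds there were 3.0, 2.59 and 2.47 and the pooled fold was 1.98. The other tRNA-Glu member, chr5:26653151-26653819, stood between CHR1, a chromatin remodelling factor needed for DNA methylation, and SDH1-1, a subunit of succinate dehydrogenase. Its list folds were 2.23, 2.55 and 2.22, with the same pooled fold of 1.98. Library 1 was highest at the first 2 of these members and library 2 at the third.

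At the lower end, the tRNA-Asn member between RHA2B, a RING-H2 finger protein, and BAT1, an amino acid transporter, had the lowest pooled fold of all members, 1.31. Its list folds were 1.78, 1.75 and 2.10. The tRNA-Thr member between ADF9, an actin depolymerizing factor, and SLP2 had a pooled fold of 1.34 and list folds of 2.48, 2.24 and 2.10. Both were weak against the combined wild type, and the list folds of the tRNA-Thr member lay around the medians of the members in each library, which were 2.23, 2.21 and 2.16. The 6 tRNA-Met members stayed between 1.41 and 1.64 in pooled fold, the 7 tRNA-Val members between 1.46 and 2.12, and the 10 tRNA-Arg members between 1.46 and 1.80.

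Members without a tRNA window, 36 in all, had the higher pooled folds. Their median was 1.70 (range 1.37 to 2.56), against 1.61 (1.31 to 2.12) for members with a tRNA window. These values come from the contrast that made the list and are given with no test. The list folds set each library against itself. Over members found in a list, tRNA members had median list folds of 2.11, 2.14 and 2.16 in RGA-GFP libraries 1, 2 and 3. The other members had 2.56, 2.34 and 2.13. The tRNA members were lower in libraries 1 and 2 and not in library 3. The mean difference was -0.21 ± 0.25 (SD, n = 3 libraries; exact sign-flip permutation test, two-sided, p = 0.5, with 0.25 the smallest that 3 libraries can give). The difference did not exceed the spread between libraries. The lists also took genes into the table, so this test is not independent of the rule. Peak length moved with this split: the median was 470 bp for tRNA members and 559.5 bp for the others, and the part of length in the difference in pooled fold was not tested.

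Apart from tRNA genes, the middle gene was protein-coding in 36 members, a small nucleolar RNA (snoRNA) in 2 and a microRNA in 1. Of the 36 protein-coding middle genes, 32 have no short description in the authors' table, and 21 have no entry in the RefSeq gene table used for names (assembly TAIR10.1). The 21 members around such a gene had a median pooled fold of 1.83 (range 1.46 to 2.56), against 1.64 for all 113 members. They were 21 of the 113 members and 5 of the 10 with the highest pooled fold. The pooled fold comes from the contrast that made the list, so no test is given. In 35 members with a protein-coding middle gene the interval could be measured, and its median was 145 bp (range 100 to 475), longer than the longest interval at a tRNA gene, 82 bp.

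The member with the highest pooled fold, 2.56, covered chr3:877372-877802 between AT3G03620, a MATE efflux family protein, and CS26, a cysteine synthase. Its list folds were 3.73, 4.05 and 2.99, the pileup at its summit was 188, and no wild type list held a peak there. The next, chr5:6812137-6812786, lay between AT5G20180, annotated as ribosomal protein L36, and AT5G20190, a tetratricopeptide repeat protein. With list folds of 4.47, 4.27 and 3.34 and a pooled fold of 2.46, it had the highest mean list fold of all members found in the 3 lists, 4.02 ± 0.60 (SD, n = 3). It also had the highest −log10 q of the members, 29.2.

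The third, chr1:7732146-7732630, lay between LEC1, a transcription factor subunit known as a master regulator of embryo development, and PIP5K1, a kinase that makes phosphatidylinositol 4,5-bisphosphate. List folds were 3.37, 3.17 and 2.46 and the pooled fold was 2.25. At chr3:22291087-22291818, between AT3G60310 and AT3G60320, list folds were 3.01, 2.99 and 2.53 and the pooled fold was 2.21. At these 4 members library 3 gave the lowest list fold, although it was the deepest RGA-GFP library.

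Of the remaining members among the 10 with the highest pooled fold, the one between AT5G58410 and AT5G58420, a gene of the RPS4A ribosomal protein family, had list folds of 2.85, 2.25 and 1.91 and a pooled fold of 2.04. The one beside PHT4;1, a plastid phosphate transporter, had list folds of 2.75, 2.25 and 2.31 and a pooled fold of 2.01. The member between PSY, which makes phytoene in the first step of carotenoid synthesis, and SDG40, a SET domain protein, had list folds of 2.33, 2.83 and 1.94 and a pooled fold of 1.98. A tRNA window was present in 3 of these 10 members. Ordered by pooled fold, tRNA windows were present in 21 of the 38 strongest members (55.3%), 28 of the middle 38 (73.7%) and 28 of the 37 weakest (75.7%).

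**Figure D3:**
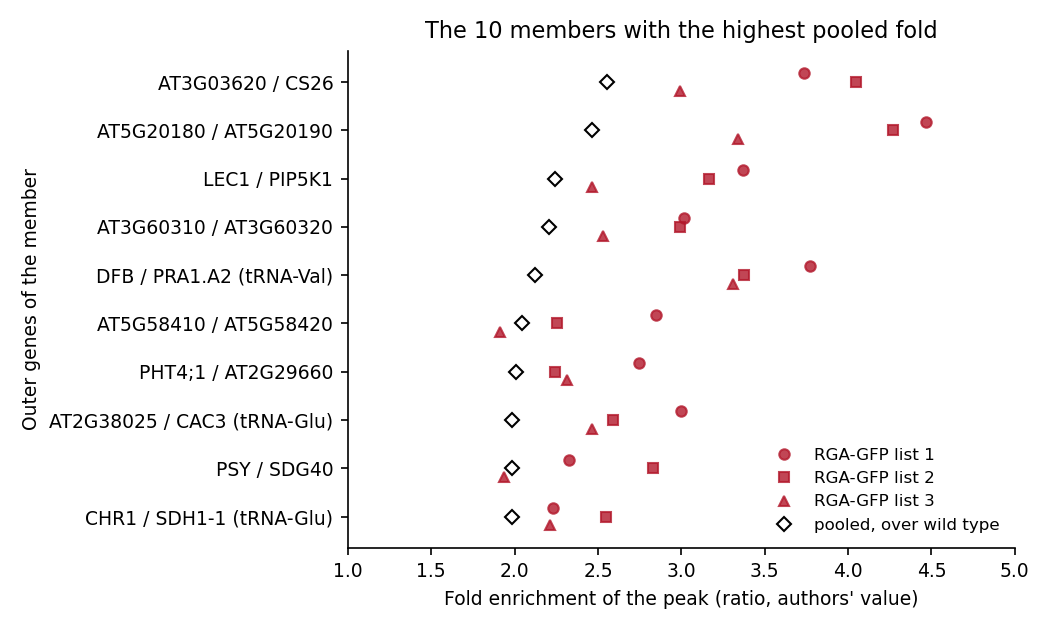
Fold enrichment (x axis, ratio) in the lists of RGA-GFP libraries 1 (circles), 2 (squares) and 3 (triangles) and in the pooled list against wild type (open diamonds) for the 10 members with the highest pooled fold, named by their outer genes and, where present, the tRNA gene (y axis). List folds run from 1.91 to 4.47. The list and pooled folds are different ratios.

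Pooled and list folds ranked the members differently. Over the 107 members with a peak in all 3 RGA-GFP lists, the rank correlation of list folds between libraries was 0.84 (libraries 1 and 2), 0.70 (1 and 3) and 0.77 (2 and 3). Between the pooled fold and the list fold it was 0.43, 0.51 and 0.34 for libraries 1, 2 and 3, although these lists share reads. The member chr4:1382363-1382824 beside RBP-DR1, an RNA-binding protein of the defence response, shows the gap: its list folds were 3.25, 2.96 and 2.53, the eighth highest mean, while its pooled fold of 1.37 was the lowest but 2.

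The highest −log10 q on chromosomes 2 and 4 added 2 members to those named. On chromosome 2 it was at chr2:19010949-19011511 beside CRF5, a cytokinin response factor, with list folds of 2.56, 2.40 and 2.04 and a pooled fold of 1.97. On chromosome 4 it was at chr4:14117890-14118682 beside RIC7, an effector of ROP GTPases. The list folds there were 4.75, 3.71 and 3.51, the 4.75 being the highest of any member in any list, and the pooled fold was 1.87. Wild type library 1 also held a peak at this member, with a list fold of 2.09 and a pileup of 71, while wild type libraries 2 and 3 held none.

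One member had no protein-coding gene among its windows. At chr1:6696903-6697302 the windows belonged to MIR169h, a microRNA of the miR169 family, which targets NF-YA transcription factor genes, and to the snoRNA genes AT1G19373 and AT1G19376. It was also the sole member with 2 windows of 1 RNA type other than protein-coding genes. Its pooled fold was 1.46. The overlapping list peaks had folds of 2.87, 2.94 and 2.53, but their summits lay 686, 667 and 701 bp to the right of the member, so these folds were measured outside it. The other microRNA was MIR158a, the middle gene of a member with list folds of 2.15, 2.31 and 2.17 and a pooled fold of 1.58. The third snoRNA window, at AT4G02555, lay beside LD, a homeodomain protein of the autonomous flowering pathway, and that member had list folds of 2.23, 2.04 and 2.02 and a pooled fold of 1.49.

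The outer genes were mostly protein-coding: 221 of the 226 were, and both were in 109 members. No gene had its window in 2 members, so the members touched 339 genes, 2.52% of the table. The nearest members lay 16548 bp apart. By type, 257 of the 339 rows were protein-coding, 77 tRNA, 3 snoRNA and 2 microRNA genes, and tRNA genes made up 22.7% of these rows, against 2.48% of the table. Chromosomes 1 to 5 held 29, 12, 24, 24 and 24 members, from 1.04 per 100 short pooled peaks on chromosome 2 to 2.06 on chromosome 4.

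Few genes of the lists that fit RGA and growth lay in the members' windows. None of the 26 gibberellin genes of the table lay in one, although 24 of them have a pooled fold, and the same held for 9 cell cycle inhibitors (9 with a pooled fold) and 12 INDETERMINATE DOMAIN genes (12 with a pooled fold). All these lists were matched by gene symbol, so genes of a family under another symbol were not counted. The members' 339 genes held none of the table's 104 genes with a cytochrome P450 (CYP) symbol, of which 64 have a pooled fold. Nor did they hold any of its 33 genes with an ERF, DREB or CBF symbol (27 with a pooled fold). The same held for its 15 genes with a CLE symbol (9 with a pooled fold). They held 1 of 52 genes of light harvesting and the photosystems (46 with a pooled fold), 1 of 45 SAUR genes (38) and 1 of 5 GASA genes (5). Of 31 genes with an RPL or RPS symbol (16 with a pooled fold) they held 2. Other genes of the members are described as ribosomal but have no such symbol, among them AT5G20180 and AT5G58420. Those are outside this count. The 339 genes are 2.52% of the table, which also holds rows with no pooled fold. In lists of this size few hits or none say little about a gene family, and no test was run.

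The members that hold these listed genes had pooled folds from 1.45 to 1.86, around the median of all members, 1.64. GASA1, a gibberellin-responsive gene of a small cysteine-rich peptide, was the right gene of a tRNA-Thr member at chr1:28440767-28441246, with list folds of 1.82, 1.99 and 2.16 and a pooled fold of 1.86. The summit behind the 1.99 of library 2 lay 232 bp outside the member. SAUR24, an auxin-responsive gene, lay beside a tRNA-Trp gene, with list folds of 2.57, 2.00 and 2.04 and a pooled fold of 1.78. The summit behind the 2.57 of library 1 lay 511 bp outside the member. LHCB6, an antenna protein of photosystem II, was an outer gene of a member with list folds of 1.70, 1.62 and 1.65 and a pooled fold of 1.62. That mean list fold was the lowest among members found in all 3 lists. The LHCB6 window also holds another peak with a higher pooled fold, 1.83. RPL12-A and RPS6, both ribosomal proteins, stood beside tRNA-Pro and tRNA-Met genes in members with pooled folds of 1.65 and 1.45.

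Other outer genes with well known roles were picked after their values were seen. ULT1, which ends floral meristem activity, and ELF4 and RVE8, parts of the circadian clock, lay in members with pooled folds of 1.94, 1.80 and 1.79. List folds were 2.20, 2.25 and 1.85 at ULT1, 3.03, 2.55 and 1.78 at ELF4, and 1.72, 1.79 and 1.85 at RVE8, where the summit of library 2 lay 362 bp outside the member. Of these 3 members the one at ELF4 varied most between libraries, with library 3 lowest. ABI5, a bZIP factor of abscisic acid signalling, was the left gene of a tRNA-Tyr member with list folds of 1.63, 1.67 and 1.83 and a pooled fold of 1.64. HAB1, a phosphatase that restrains the same hormone pathway, lay in a tRNA-Ser member with a pooled fold of 1.60. Related genes flanked some members: WAKL7 and WAKL6, wall-associated kinase-like genes, enclosed a tRNA-Lys gene with a pooled fold of 1.62, and GATA10 and GATA11, GATA transcription factors, enclosed AT1G08005 with a pooled fold of 1.59.

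In the authors' deposited table, one peak gives its value to several genes. Of the members' 339 rows, 296 carried the pooled fold of the member itself, and in 83 members all 3 genes had it. The other 43 rows carried a higher fold, from another peak in the same window, in 35 outer and 8 middle genes. ABI5 is one of them, with 1.89 in the authors' deposited table. The table gives a peak in 3 replicate lists for 323 rows, in 2 for 7 and in 1 for 9. The same shares over all rows of the table are not given here, so these row counts do not set the members apart.

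Members were modest peaks of ordinary height. Their pooled folds ran from 1.31 to 2.56 with a median of 1.64 (quartiles 1.54 and 1.79), against 1.68 for short peaks in 1 or 2 windows. A pooled fold of at least 2 was reached by 7 members (6.19%), against 12.8% of all short pooled peaks, and a −log10 q of at least 10 by 20 members (17.7%), against 22.4%. The median pileup was 137 in members and 135 in peaks in 1 or 2 windows, and the median length was 500 bp in members (range 313 to 979), against 462 bp. The contrast behind these values made the list, so no test is given.

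Every one of the 3 RGA-GFP lists held a peak at 107 of the 113 members (94.7%), which was so for 75.9% of all short pooled peaks. The table takes a gene in through a replicate peak in its window, so this share is partly fixed by the rule. By library, 109, 112 and 108 members (96.5%, 99.1% and 95.6%) were found, against 88.2%, 90.5% and 82.3% of peaks in 1 or 2 windows. Of the other 6 members, 3 were in 2 lists, 2 in 1 list and 1 in none. That last member, between AT1G02070 and AT1G02080, had a pooled fold of 1.51 and the lowest pileup of the members, 108.

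Members found in a list had median list folds of 2.23, 2.21 and 2.16 in RGA-GFP libraries 1, 2 and 3. Short peaks in 1 or 2 windows that were found in a list had 2.31, 2.25 and 2.04. A peak not found in a list has no list fold, and this was more frequent among peaks in 1 or 2 windows. Members were lower in libraries 1 and 2 and higher in library 3. The mean difference was 0.0024 ± 0.11 (SD, n = 3 libraries; exact sign-flip permutation test, two-sided, p = 1), far inside the spread between libraries. Peaks of these same lists took genes into the table, so the test is not independent of the rule. Within a member the list folds were close: the median SD over the 3 libraries was 0.147, and the mean list fold ran from 1.66 to 4.02. The highest list fold came from library 1 in 46 members, library 2 in 29 and library 3 in 32.

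Wild type lists rarely met a member. A wild type peak overlapped 2 of 113 members (1.77%), against 5.66% of all short pooled peaks. Both were in library 1: the member beside RIC7 and a tRNA-Ile member at chr3:1738629-1739151. The tRNA-Ile member had list folds of 2.72, 2.83 and 2.40 in RGA-GFP, against 1.86 in wild type library 1. By wild type library, 1.77%, 0% and 0% of members were met, against 5.11%, 0.277% and 1.73% of short peaks in 1 or 2 windows. The pooled peaks were called against these wild type reads, and the share rests on 2 overlaps, so no test is given. A count of 0 of 113 members allows a share of up to 2.65%, counting error only, which is above the share of the other short peaks in wild type libraries 2 and 3. Among tRNA members 1 of 77 (1.30%) overlapped a wild type peak, while 9 of 103 (8.74%) did among short peaks in 1 or 2 windows with a tRNA window, a difference that was not tested. Wild type libraries were shallower than RGA-GFP libraries, and a wild type peak weaker than the calling threshold was not detectable at this depth.

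**Figure D4:**
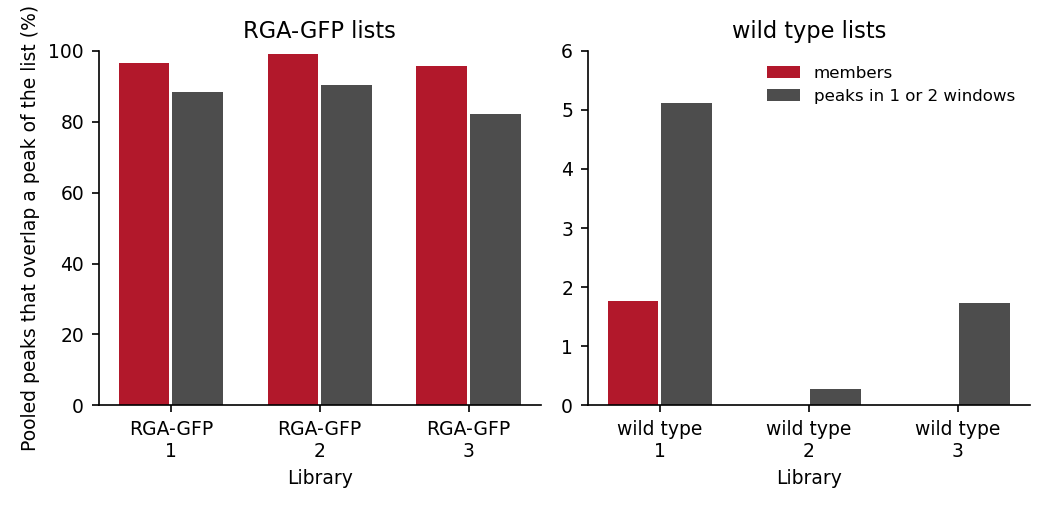
Share of pooled peaks (y axis, %) that overlap a peak in each RGA-GFP list (left panel) and each wild type list (right panel, another scale), for the 113 members (red) and the 6866 short peaks in 1 or 2 windows (grey). Members were found in 95.6% to 99.1% in RGA-GFP and in 0% to 1.77% in wild type.

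The same rule was applied to each library's own list. It gave 185, 191 and 221 peaks in RGA-GFP libraries 1, 2 and 3, and 9, 1 and 2 in wild type, whose lists are far shorter. As a share of the peaks under 1000 bp in each list, this was 1.92%, 1.89% and 2.58% in RGA-GFP. In wild type it was 1%, 0.4% and 0.408%, a difference that was not tested. Of these peaks, 141, 137 and 171 in RGA-GFP and 7, 1 and 2 in wild type had a tRNA window. The share with a tRNA window was thus 76.2%, 71.7% and 77.4% in RGA-GFP and 77.8%, 100% and 100% in wild type, where it rests on 9, 1 and 2 peaks. The windows themselves come from genes with an RGA-GFP peak. Of the peaks in the RGA-GFP lists, 91, 94 and 95 overlapped a member.

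Summits lay near the tRNA genes. In the 74 members with a tRNA gene in the middle, the pooled summit was a median of 54 bp from the centre of the interval (quartiles 23 and 99.8, highest 399.5). It was within 100 bp in 55 members (74.3%), and inside the interval in 23. The middle of the peak was about as near, a median of 55.8 bp away. Summits of the RGA-GFP lists gave medians of 58, 50.5 and 49 bp (mean 52.5 ± 4.82, SD, n = 3). In the 38 members with another middle gene and a measured interval, the pooled summit was a median of 52.3 bp from the centre, and those of the lists 60.8, 75 and 81.5 bp. A short peak that must hold the interval leaves the summit little room, so nearness to a tRNA gene is largely fixed by the rule.

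**Figure D5:**
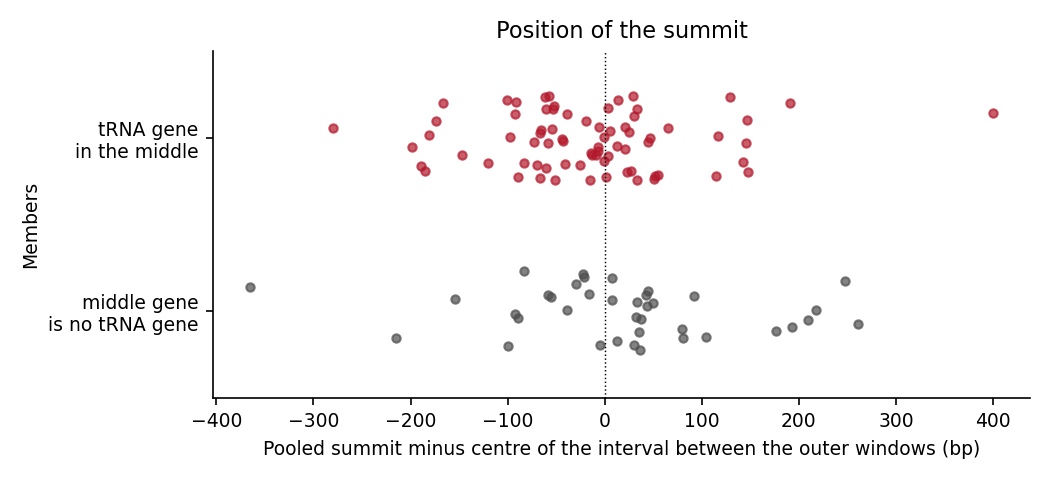
Position of the pooled summit relative to the centre of the interval between the outer windows (x axis, bp; negative to the left on the chromosome), 1 point per member, for 74 members with a tRNA gene in the middle (above, red) and 38 others (below, grey), spread vertically for legibility. Most summits lie within 100 bp of the centre in both sets.

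The limits of the rule pass through a continuous range. The longest members were 979 and 965 bp, and the shortest peaks in at least 3 windows that were left out were 1001 and 1053 bp. The smallest overlaps with the least covered of the 3 windows were 50 and 53 bp in members, whose median was 131 bp. Another 34 short peaks in 2 windows touched a further window by less than 50 bp, at most 49 and 47 bp.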

How the data were processed

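Samples were grouped by their titles. Per the submitters' processing notes, Bowtie2, SAMtools and MACS2 2.0.10 were used on the TAIR10 build. The single libraries were called with no control, per the file headers, with tags extended to 300 bp, 1 tag kept per position, a q cutoff of 0.05 and a background from 10000 bp. Per the file headers, the pooled list set combined RGA-GFP against combined wild type (39204769 and 21323289 tags kept), with a background from 1000 and 10000 bp and the larger data set scaled to the smaller. The authors' deposited values per peak are a fold enrichment (ratio), a pileup (signal at the summit) and the −log10 of the q value. Per the file headers, the authors' gene table holds windows, a count of RGA-GFP lists with a peak of log10 q at least 3, and the pooled fold, for overlaps of at least 50 bp.

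From these files, windows were counted per peak, peaks that shared 1 bp or more were matched between lists, and each list fold is the highest of the overlapping peaks (Python 3.11.15, pandas 2.3.3, SciPy 1.17.1). Differences were taken within a library and tested over libraries by an exact sign-flip permutation test. The same test had been planned for the share with a wild type peak and is not given, since that share rests on 2 overlaps. p-values measure the spread between these 3 biological replicates. Intervals run from the end of the left window to the start of the right one. Gene symbols come from the RefSeq table (TAIR10.1), which lists 316 of the members' 339 genes, and tRNA kinds from the authors' table. The build differs in name from that of the files, so RefSeq positions served only for the count of exact edges, and summits were not placed in genes. The members and gene lists were chosen with earlier results of these data known. Members named were the 10 with the highest pooled fold, the highest −log10 q per chromosome, those with 2 windows of 1 list, and any with a gibberellin, cell cycle inhibitor or INDETERMINATE DOMAIN gene, of which there was none. Ranges, exceptions and further genes were named after their values were seen. Only the count of overlaps between intervals was tested on simulated data. Sequences and motifs were not analysed here.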

Additional observations from a re-analysis of the deposited data

How the results depend on the processing

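The number of members followed the rule: 113 became 3561 with at least 2 windows, 0 with at least 4 and 0 when the summit had to lie in the window. It was 56 under 500 bp, 20 at a −log10 q of at least 10, 147 with an overlap of 1 bp and 151 with no length limit. With only the rows that RefSeq lists as protein-coding genes it was 13. RefSeq has no entry for 21 middle genes that the authors' table calls protein-coding. Members with a tRNA window, 77 of 113, were 43 of 56 (76.8%) under 500 bp and 7 of 20 (35%) at a −log10 q of at least 10, alternatives chosen after seeing the data. The median pooled fold was 1.97 at that q, against 1.64. Members found in the RGA-GFP lists numbered 107 to 109 when 1 library was left out. Members with a wild type peak numbered 0 to 2, with 0 when wild type library 1 was left out.

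The difference in median list fold between members and peaks in 1 or 2 windows, 0.0024, changed sign to -0.0034 against all other short pooled peaks, -0.0012 against peaks in 1 window, -0.028 under 500 bp, -0.057 at 500 bp or more and -0.089 at a −log10 q of at least 10, and ran from -0.057 to 0.044 with 1 library left out. None came below p = 0.25 in the exact permutation test, the smallest that 3 libraries can give, and the cause was not tested. The difference in list fold between tRNA and other members, a comparison chosen after seeing the data, kept its sign in 7 of 7 alternatives. It ran from -0.33 to -0.085 with 1 library left out. No p came below 0.5 in the exact permutation test, and 0.5 is the smallest that this test can give with 1 library left out. All alternatives reuse the same 3 libraries, and library 3 had the opposite sign (0.035) in the main setting, so the count says little about stability. With list peaks whose summit lies inside the pooled peak, also chosen after seeing the data, the difference was 0.0091 for members minus peaks in 1 or 2 windows and -0.19 for tRNA members minus other members. The share with a wild type peak rests on 2 overlaps in wild type library 1, so the sign of its difference shows nothing about stability. The summit distance was 49 bp with the summits of RGA-GFP library 3, against 54.

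No paired analysis was possible because no test sets RGA-GFP against wild type, the groups that share replicate numbers and the contrast that chose the members. The count of members with a summit inside an annotated gene was not run, since the gene table is of another build name, and the median pooled fold with at least 4 windows has no value. Pooled and single lists share reads, depth limits what the wild type lists can hold, and 3 libraries cannot give a p under 0.25.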
